A study of Homo sapiens with 14 samples.

Results

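The comparison described here set H929 myeloma cells carrying shRNA1, a lentiviral short hairpin RNA against ZBP1, against H929 cells carrying the scramble control that was made for that hairpin. H929 is an established human multiple myeloma line that carries the t(4;14) translocation. Each group had 2 RNA-seq libraries, so 4 of the 14 libraries of the series enter, chosen by their labels alone. Every group, scramble groups included, received lentivirus and was kept in RPMI medium with FBS, and poly(A) RNA was sequenced. The study also holds a second hairpin, shRNA2, in H929 with a scramble of its own, and both hairpins in the line MM1.S with 1 shared scramble. No label gives the hairpin sequences, a time after transduction or a selection step, and none says whether replicate libraries stem from different cultures; p-values here therefore speak of library-to-library spread, possibly technical.

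ZBP1 is a cytosolic protein that binds left-handed Z-form RNA and DNA, and its gene is induced by interferon. In other cells it is known to pass a signal through the kinase RIPK3 to MLKL, which opens the plasma membrane in necroptosis, and it also binds RIPK1. Myeloma is a tumour of plasma cells, which secrete antibody and depend on the transcription factors IRF4, PRDM1 and XBP1. In t(4;14) lines the translocation places FGFR3 and NSD2 next to immunoglobulin enhancers.

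The shRNA1 libraries held 18324715 and 15926867 reads in genes and the scramble libraries 16884537 and 17437401. Values are given as normalised reads, that is reads divided by the library's size factor, and fold changes are on the scale log2(normalised reads + 1). ZBP1 (chr20:57603846-57620576, minus strand, GRCh38) had 1659 and 1888 normalised reads in the shRNA1 libraries, against 4269 and 4513 in the scramble libraries. The knockdown libraries kept 40.4% of the scramble level, a log2 fold change of -1.31 ± 0.09 (SE, 2 libraries a group, limma adjusted p = 8.6e-09). All 8 plasma cell markers (SDC1, CD38, TNFRSF17, IRF4, PRDM1, XBP1, MZB1 and SLAMF7) were present, with summed levels of 88642 and 82392 normalised reads in the shRNA1 libraries and 104394 and 105913 in the scramble libraries. Summed markers of T cells (303 and 461 with shRNA1, against 332 and 455 with scramble), NK cells (37 and 73 with shRNA1, against 89 and 155 with scramble), monocytes (63 and 63 with shRNA1, against 121 and 157 with scramble) and erythroid cells (26 and 28 with shRNA1, against 21 and 24 with scramble) were low in every library. CD3D, CD8A, NKG7 and MARCO were among the markers too low to test, and NCR1, HBA2 and HBG1 had no read. Others were present: 4 of 10 T cell, 3 of 7 NK, 4 of 9 monocyte and 1 of 8 erythroid markers had a mean of 10 or more. At a limma adjusted p under 0.05, 2 of 4 T cell, 2 of 3 NK and 1 of 4 monocyte markers tested were lower with shRNA1. Among all genes 27.7% were lower. With a filter of 50 these counts came to 0.

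Of 58051 genes listed, 18213 reached 10 normalised reads in at least 2 H929 libraries and were tested. With shRNA1, 4685 of them rose (25.7%) and 5044 fell (27.7%) at a limma adjusted p under 0.05, and 53.4% were called in all. The shares of 25.7% and 27.7% are the background for each list count given below. By 2-fold or more, 1932 rose (10.6%) and 1808 fell (9.93%). The scale decides how the calls split: when each library was scaled to its total reads, which moves the median of all genes by 0.158 on the log2 scale, 6014 rose and 3934 fell. As a background for these shares, the scramble for shRNA1 and the scramble for shRNA2, both H929 controls, differed in 29.9% of the same genes. Differences between control groups of this line were therefore common under this test, although fewer were large: 4.27% were higher and 2.21% lower by 2-fold or more in the scramble for shRNA1.

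**Figure D1:**
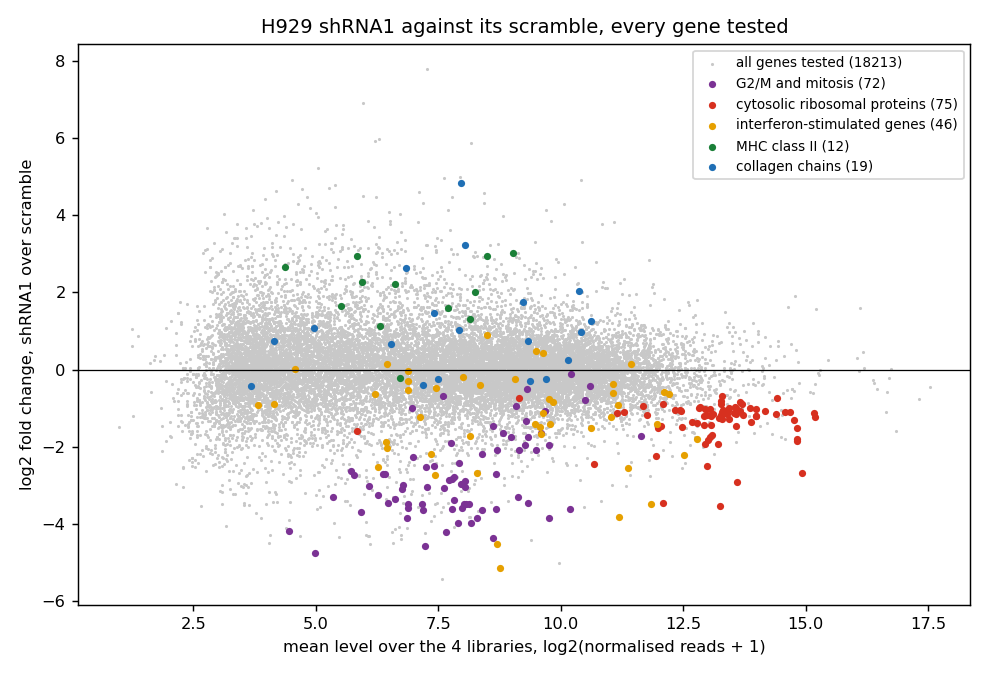
Each point is 1 gene of the H929 comparison, with its mean level over the 4 libraries on the horizontal axis and its log2 fold change, shRNA1 over scramble, on the vertical axis; coloured points are members of 5 gene lists. The 75 cytosolic ribosomal protein genes lie together below 0 at high levels, the 72 genes of G2/M and mitosis lie lower at middle levels, and 11 of 12 MHC class II genes lie above 1.

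The structural proteins of the cytosolic ribosome fell as a body. All 75 ribosomal protein genes tested were lower with shRNA1, with a median log2 fold change of -1.17 (0.444 of the scramble level) and a range of -3.52 to -0.68, where the median of all genes was -0.01. Of these, 58 lay at -1.5 or above, so most fell by a similar amount, and 7 lay below -2. RPS16 (chr19:39433207-39435948, minus strand), a protein of the small subunit, had 1573 and 1562 normalised reads in the shRNA1 libraries, against 17903 and 18069.7 in the scramble libraries. It changed by -3.52 ± 0.09 (adjusted p = 3.3e-13), and the replicates of each group lay close together. RPS3A, also of the small subunit, had 649 and 827 normalised reads in the shRNA1 libraries, against 7686 and 8279 in the scramble libraries. In both genes the shRNA1 libraries lay below the scramble libraries with a wide gap. RPL13A of the large subunit (-2.67), RPS20 (-2.48), RPL26 (-2.44) and RPS26 (-2.23) were also among the members that fell far, whereas RPL36 (-0.68), RPL17 (-0.74) and RPS27 (-0.74) changed least. Ribosomal protein genes have many processed pseudogenes, between which counting can split reads, and of 766 processed pseudogenes tested 34.6% were lower and 5.61% higher. In bulk RNA, fewer cells of a type and less RNA per cell cannot be told apart.

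Ribosomal protein genes and several translation factor genes are known for a pyrimidine tract at the 5' end of the mRNA, the TOP motif, which starts with C. The start sites of 6 genes that fell are shown because they carry such a run; each line gives 20 bases before and 10 from the annotated RefSeq start on GRCh38.p14, 5′ to 3′, with the run of C and T that begins at the start in capitals.
RPS16 (chr19:39435940-39435969, minus strand): ccagggtggcccctagctttCCTTTTCCgg
RPS3A (chr4:151099608-151099637, plus strand): tcgcgcgactcccacttccgCCCTTTTggc
RPL13A (chr19:49487588-49487617, plus strand): ccctgcgacaaaacctcctcCTTTTCCaag
RPL26 (chr17:8383184-8383213, minus strand): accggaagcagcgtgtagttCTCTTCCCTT
EIF3F (chr11:7987317-7987346, plus strand): gtcatttccgcttccgcctcCTTCTTTCTC
EEF1A1 (chr6:73521023-73521052, minus strand): cagtagtcgccgtgaacgttCTTTTTCgca
A start with C followed by at least 4 more pyrimidines was found in 40 of the 60 ribosomal protein genes with an entry (66.7%), in 10 of 42 genes of translation initiation and elongation factors (23.8%), in 5 of 69 mitochondrial ribosomal protein genes (7.25%) and in 4.04% of all 27305 genes with an entry. These are matches at annotated starts, and no start site was measured in these libraries.

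**Figure D2:**
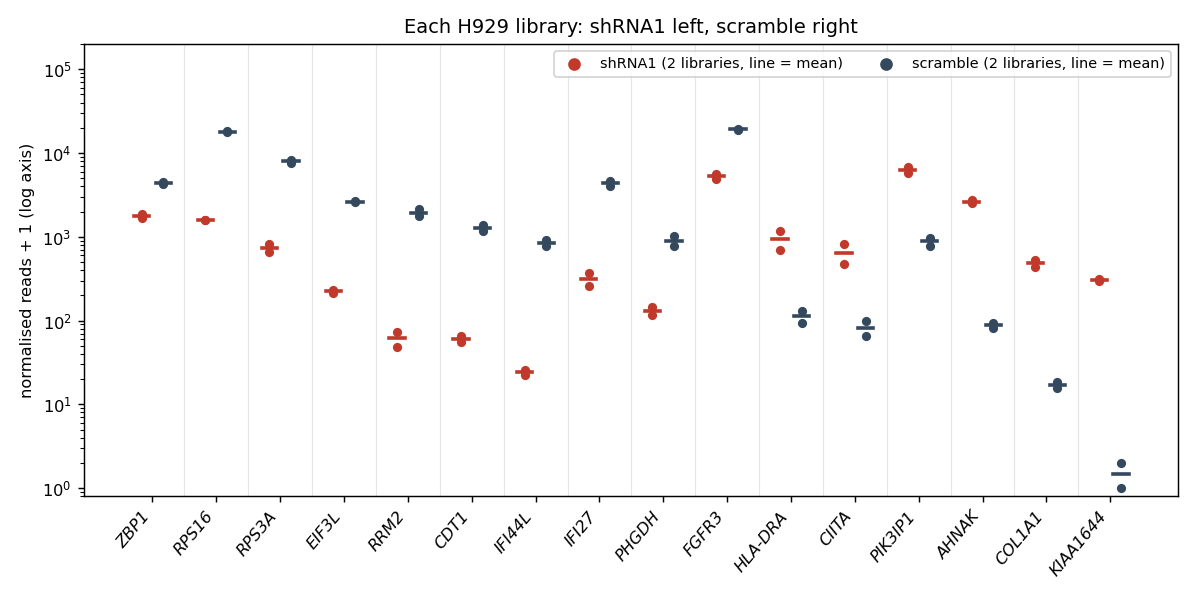
Normalised reads plus 1 (log axis) of 16 genes in each H929 library; for each gene the 2 shRNA1 libraries stand on the left and the 2 scramble libraries on the right, and a line marks the mean of each group. The groups are apart in every gene shown. ZBP1, RPS16, RPS3A, EIF3L, RRM2, CDT1, IFI44L, IFI27, PHGDH and FGFR3 are lower with shRNA1. HLA-DRA, CIITA, PIK3IP1, AHNAK, COL1A1 and KIAA1644 are higher. RRM2, CDT1, IFI44L, AHNAK, COL1A1 and KIAA1644 were ranked only if their groups did not overlap, so their gap was set by the rule.

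Translation factors were unequal. Of 48 genes of initiation and elongation factors, a family chosen after its values were seen, 32 fell and 3 rose, with a median of -0.54; the 3 came to 1 without scramble replicate 1 and to 5 with libraries scaled to their totals. EIF3L, a subunit of the initiation complex eIF3, had 214 and 229 normalised reads in the shRNA1 libraries, against 2583 and 2686 in the scramble libraries, a change of -3.56 ± 0.08 (adjusted p = 1.6e-13). EIF3F, another eIF3 subunit, had 803 and 841 normalised reads in the shRNA1 libraries, against 2996 and 2947 in the scramble libraries, and both its shRNA1 values lay far below the scramble values. Other eIF3 subunits fell less (EIF3B -1.18, EIF3A -0.50) and EIF3J, at -0.10, was not called. EEF1A1, which brings aminoacyl-tRNA to the ribosome, had 58644 and 58160.0 normalised reads in the shRNA1 libraries, against 178205 and 175172 in the scramble libraries, and EEF2, the translocase, changed by -1.10 ± 0.11. EIF5, which acts on the start codon complex, rose by 0.59. Ribosome assembly moved too: of 45 genes of ribosome biogenesis and MYC targets, 37 fell and none rose (2 with libraries scaled to their totals), with FBL, the rRNA methyltransferase fibrillarin, at -1.90 ± 0.09 and NHP2, a box H/ACA snoRNP protein, at -1.63.

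Genes of the mitochondrion were lower by smaller amounts. Of 78 mitochondrial ribosomal protein genes, a second family chosen after its values were seen, 62 fell and 2 rose (5 with libraries scaled to their totals), with a median of -0.52. Among 51 nuclear-encoded subunits of the respiratory chain and ATP synthase, 42 fell and none rose (median -0.65), or 1 rose without shRNA1 replicate 2 or with libraries scaled to their totals. ATP5C1, the gamma subunit of ATP synthase, had 485 and 525 normalised reads in the shRNA1 libraries, against 1251 and 1408 in the scramble libraries. COX7A2, a subunit of cytochrome c oxidase, changed by -1.26 ± 0.08, and UQCRH, of complex III, by -1.26 ± 0.09; in all 3 genes the groups did not overlap. Transcripts of the mitochondrial genome fell in 10 of 13, with a median of -0.37, MT-CO1 at -0.76 ± 0.12 furthest, and this count fell to 6 when libraries were scaled to their totals and to 6 without scramble replicate 1. Reads of all mitochondrial genes made up 6.34% and 5.982% of the shRNA1 libraries and 7.217% and 6.627% of the scramble libraries.

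Many of these genes are short, and change followed transcript length across the transcriptome. Over 13661 coding genes with a length, the log2 fold change and the length of the longest annotated transcript had a Spearman correlation of 0.252. The value was 0.15 for MM1.S shRNA1, -0.00398 for H929 shRNA2 and 0.0291 for the scramble groups set against each other. Genes are not independent replicates, and all points of a comparison share the same 4 libraries. The median change was -0.46 for the 258 coding genes with transcripts up to 800 nt and 0.28 for the 2518 genes over 6000 nt. Up to 1200 nt, the 40 ribosomal protein genes had a median of -1.13 and the 836 other coding genes one of -0.40, so the ribosomal protein genes lay lower than genes of like length. What part length had in any group's change was not tested.

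**Figure D3:**
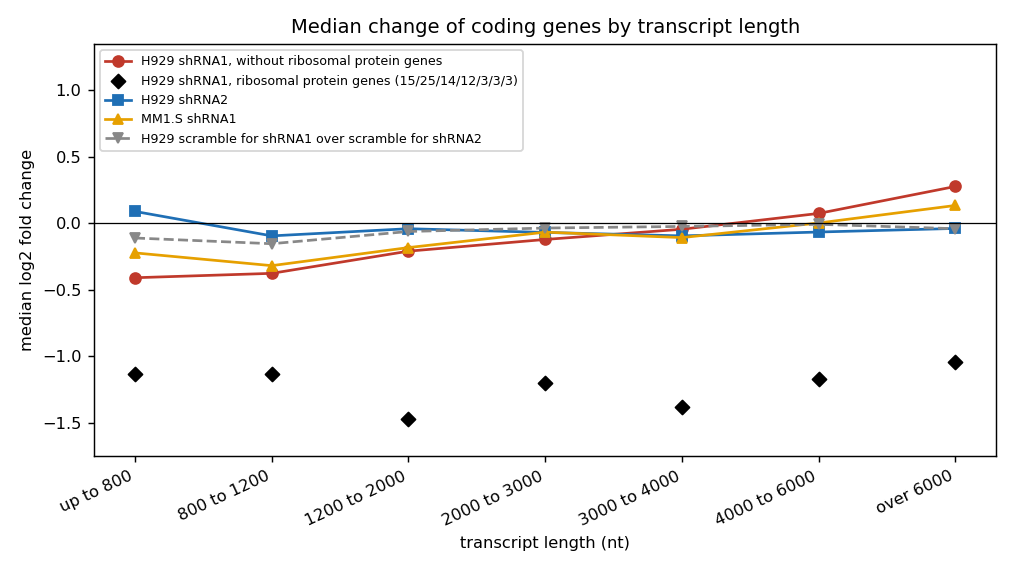
Median log2 fold change of coding genes (vertical axis) in 7 classes of transcript length in nt (horizontal axis); red circles are H929 shRNA1 over scramble without ribosomal protein genes, black diamonds the ribosomal protein genes, and the other lines H929 shRNA2, MM1.S shRNA1 and the H929 scramble groups against each other. The red line climbs with length while the black diamonds stay between -1.47 and -1.04 in every class.

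The proliferation programme was the most strongly lowered of the lists. Of 72 genes of G2/M and mitosis, 71 fell and none rose, with a median of -2.97, and of 54 genes of DNA replication and G1/S, 50 fell and none rose, with a median of -1.68. RRM2, the small subunit of ribonucleotide reductase that makes deoxynucleotides, had 48 and 72.7 normalised reads in the shRNA1 libraries, against 2116 and 1750.0 in the scramble libraries. CDT1, which loads the MCM helicase at origins, had 64.5 and 54.3 normalised reads in the shRNA1 libraries, against 1399 and 1169.6 in the scramble libraries, a change of -4.41 ± 0.12 (adjusted p = 5.5e-13). MCM10, an initiation factor, had 5.79 and 12.9 normalised reads in the shRNA1 libraries, against 229 and 179 in the scramble libraries. Both shRNA1 libraries were low in all 3. These genes were among the 12 lowest, which were ranked only if their groups did not overlap, so the gap was set by the rule. Subunits of the helicase itself fell less and by unequal amounts, with MCM5 at -2.50, MCM2 at -1.96 and MCM7 at -0.63, as did the sliding clamp PCNA (-1.35) and thymidylate synthase TYMS (-1.01).

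In mitosis, DLGAP5, a spindle protein, had 5.79 and 20.3 normalised reads in the shRNA1 libraries, against 278 and 288 in the scramble libraries. UBE2C, the ubiquitin-conjugating enzyme of the anaphase-promoting complex, had 22.3 and 54.3 normalised reads in the shRNA1 libraries, against 677 and 803 in the scramble libraries. The 2 shRNA1 libraries differed in both, replicate 2 being the higher: without it DLGAP5 changed by -5.39 and without replicate 1 by -3.74, and UBE2C by -4.98 and -3.74. SKA1 and CENPH, of the kinetochore, changed by -4.20 ± 0.24 and -4.49 ± 0.25, and KIF18B, a kinesin of the spindle, by -4.22 ± 0.18. MKI67, the proliferation marker, had 89.3 and 143 normalised reads in the shRNA1 libraries, against 1711 and 1539 in the scramble libraries. Cyclin B1 (CCNB1, -3.30), CDC20 (-3.98) and the kinases CDK1 (-3.48), AURKB (-3.05) and PLK1 (-2.70) were lower too, and the checkpoint kinase BUB1 fell least of those named (-1.08).

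The promoters of many G2/M genes hold the cell-cycle genes homology region, TTTGAA, a site known to be bound by the MuvB complexes. The element is shown for 4 of the genes above or their partners (CCNB2, cyclin B2, changed by -2.96); capitals mark TTTGAA or its reverse complement, and coordinates are on GRCh38.p14.
DLGAP5 (chr14:55191669-55191714, minus strand): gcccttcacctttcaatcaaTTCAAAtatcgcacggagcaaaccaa
CCNB2 (chr15:59105097-59105142, plus strand): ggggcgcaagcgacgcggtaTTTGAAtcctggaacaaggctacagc
PLK1 (chr16:23678840-23678885, plus strand): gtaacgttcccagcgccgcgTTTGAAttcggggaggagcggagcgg
CDC20 (chr1:43358896-43358941, plus strand): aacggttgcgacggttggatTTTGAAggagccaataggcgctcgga
TTTGAA on either strand, within 250 bases before and 50 after the start, was found in 39 of 63 G2/M genes with an entry (61.9%), in 1 of 46 genes of the DNA replication list (2.17%) and in 15.4% of all promoters of that length. A match is a description of the letters and does not show binding.

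DNA repair followed the same direction. Of 33 genes of homologous recombination, the Fanconi pathway and the checkpoint, 27 fell, with EXO1, a resection nuclease, at -4.20 ± 0.30, BRCA1 at -3.20 ± 0.16 and FANCI at -3.00 ± 0.10. EXO1 had few reads with shRNA1 (4.96 and 14.7 normalised reads in the shRNA1 libraries, against 171 and 182 in the scramble libraries), and its change was -4.90 without shRNA1 replicate 2 and -3.50 without replicate 1. WEE1, the kinase that holds CDK1 inactive, rose: it had 874 and 759 normalised reads in the shRNA1 libraries, against 501 and 495 in the scramble libraries. UHRF1, which recruits the maintenance DNA methyltransferase, changed by -4.29 ± 0.26. MYBL2, a partner of the MuvB core, and E2F2, an S-phase activator, were the lowest of 30 genes for CDKs, their G1 cyclins and inhibitors, and RB proteins, with changes of -2.65 ± 0.15 and -2.63 ± 0.17. Of these 30 genes 14 fell and 7 rose, against 27.7% of all genes lower and 25.7% higher.

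Inhibitors of cyclin-dependent kinases (CDKs) were split, and genes of quiescence were mostly higher. CDKN1C, which encodes the CDK inhibitor p57, had 676 and 436 normalised reads in the shRNA1 libraries, against 56.4 and 86.9 in the scramble libraries, and CDKN1B, for p27, had 3857 and 2826 normalised reads in the shRNA1 libraries, against 1112 and 1260.3 in the scramble libraries. The shRNA1 libraries were the higher in both, by 2.94 ± 0.25 and 1.48 ± 0.12 (adjusted p = 8.5e-08 and 4.4e-08). CDKN1A, for p21, was instead lower (10795 and 12564 normalised reads in the shRNA1 libraries, against 15162 and 15619.5 in the scramble libraries; -0.40 ± 0.09). Of the INK4 inhibitors, CDKN2B rose by 0.63, CDKN2A and CDKN2D changed by -0.42 and -0.93 and were called lower, and CDKN2C, at 0.01, was not called (adjusted p = 0.94). Of 25 FOXO targets and quiescence genes, 21 rose and 1 fell, with a median of 0.78. PIK3IP1, an inhibitor of PI3-kinase, had 6732 and 5741 normalised reads in the shRNA1 libraries, against 779 and 975 in the scramble libraries. BCL6, a transcriptional repressor of germinal centre B cells, had 190.2 and 196 normalised reads in the shRNA1 libraries, against 35 and 31.9 in the scramble libraries, and the groups did not overlap in either gene. IRS2 (1.87), SESN3 (1.73), TXNIP (1.62) and FOXO3 itself (0.78) rose by less, and BTG1 was the 1 member that fell (-0.43); it no longer passed once scramble replicate 2 was left out (adjusted p = 0.088) and when libraries were scaled to their totals (0.069), and 2 members fell without shRNA1 replicate 1.

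Interferon-stimulated genes were mostly lower with shRNA1. Of 46 tested, 31 fell and 2 rose, with a median of -1.02; the 2 came to 1 without scramble replicate 1 and to 4 with libraries scaled to their totals. IFI44L (chr1:78619922-78646145, plus strand), had 24.8 and 21.2 normalised reads in the shRNA1 libraries, against 768 and 918 in the scramble libraries, and its neighbour IFI44 had 27.3 and 39.6 normalised reads in the shRNA1 libraries, against 628 and 963 in the scramble libraries. IFI27, a small mitochondrial protein, had 371 and 256 normalised reads in the shRNA1 libraries, against 4077 and 4574 in the scramble libraries. These 3 genes changed by -5.13 ± 0.22, -4.52 ± 0.24 and -3.80 ± 0.16, and both shRNA1 libraries were low in each. IFI6 (-3.47), ISG15, the ubiquitin-like modifier (-2.55), the antiviral GTPases MX1 (-2.21) and MX2 (-2.74), and XAF1 (-2.66) fell as well. The fall was not shared by every member: RSAD2, the antiviral enzyme viperin, had 462 and 466 normalised reads in the shRNA1 libraries, against 200.5 and 309 in the scramble libraries and rose, and DTX3L rose by 0.44, a call that was lost without scramble replicate 1 (adjusted p = 0.21) and without shRNA1 replicate 2 (0.21). STAT2 had 3454 and 2411 normalised reads in the shRNA1 libraries, against 2645 and 2561 in the scramble libraries and was not called, whereas its partner IRF9 changed by -0.48.

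The interferon-stimulated response element is bound by a complex that holds STAT2 and IRF9. GAAANNGAAA, a form of it, was found on either strand in 28 of 40 interferon-stimulated genes with a promoter entry (70%), against 3.65% of all promoters. Among the 31 members that fell, 20 of the 26 with an entry had a match (76.9%), and among the other 17 members, 8 of 14 (57.1%). The stretches that hold the matches in 3 of the genes that fell furthest are shown, with each match in capitals.
IFI44L (chr1:78620272-78620396, plus strand): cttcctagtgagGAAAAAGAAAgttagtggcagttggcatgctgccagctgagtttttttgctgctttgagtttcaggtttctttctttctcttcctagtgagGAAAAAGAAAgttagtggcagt
IFI27 (chr14:94110616-94110662, plus strand): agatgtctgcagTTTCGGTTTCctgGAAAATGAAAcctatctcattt
IFI6 (chr1:27672264-27672360, minus strand): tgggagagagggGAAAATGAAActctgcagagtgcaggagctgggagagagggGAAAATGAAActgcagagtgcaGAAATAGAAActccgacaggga

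Among partners of ZBP1 in cell death, MLKL was lower and RIPK1 higher. RIPK3 had 0 reads in all 4 libraries, which allows up to 3 reads in each, and 0 in all 8 H929 libraries, while the MM1.S libraries held 84 to 170. MLKL, the effector of necroptosis, had 331 and 379 normalised reads in the shRNA1 libraries, against 535 and 560.2 in the scramble libraries and fell (-0.63 ± 0.11, adjusted p = 0.00015). RIPK1 had 613 and 712 normalised reads in the shRNA1 libraries, against 329 and 418 in the scramble libraries and rose by 0.83 ± 0.13. CASP8, the protease that restrains necroptosis, had 1464 and 1599 normalised reads in the shRNA1 libraries, against 1251 and 1594 in the scramble libraries; the groups overlapped closely and it was not called (adjusted p = 0.38). ADAR, which edits double-stranded RNA and has an interferon-induced form that binds Z-RNA, had 22862 and 22171 normalised reads in the shRNA1 libraries, against 32165 and 33582 in the scramble libraries and changed by -0.55 ± 0.09. Of 28 genes of ZBP1, necroptosis and death receptors, 10 rose and 9 fell, against a background of 25.7% of all genes higher and 27.7% lower; the 10 came to 5 without scramble replicate 1. BIRC3, an inhibitor of apoptosis, rose by 2.10 ± 0.16 and the death receptor FAS by 1.12 ± 0.13.

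Among 29 genes of nucleic acid sensing, 13 fell and 4 rose. IRF3, the factor activated by these sensors, had 3029 and 2677 normalised reads in the shRNA1 libraries, against 2719.7 and 2676 in the scramble libraries, and its kinase TBK1 had 553 and 613 normalised reads in the shRNA1 libraries, against 635 and 750.4 in the scramble libraries; neither was called (adjusted p = 0.5 and 0.071). TMEM173, which encodes STING, rose (0.61 ± 0.11). IFIH1, the RNA sensor MDA5, had 498 and 544 normalised reads in the shRNA1 libraries, against 1159 and 1302 in the scramble libraries and fell. RNASEH2A, a subunit of the nuclease that removes RNA from DNA, changed by -2.42 ± 0.11. TLR7, a sensor of single-stranded RNA, had 129.8 and 381 normalised reads in the shRNA1 libraries, against 673 and 852 in the scramble libraries, so that replicate 1 lay well below replicate 2 among the shRNA1 libraries; its change was -2.54 without replicate 2 and -0.99 without replicate 1.

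MHC class II had the highest median of the pathway lists. These molecules present peptides to CD4 T cells, are made by B cells and are normally silenced in plasma cells together with their master activator CIITA. Of 12 genes tested, 11 rose and none fell, with a median log2 fold change of 2.11. CIITA had 473 and 811 normalised reads in the shRNA1 libraries, against 97.3 and 64.7 in the scramble libraries, a change of 2.95 ± 0.25 (adjusted p = 6.4e-08). HLA-DRA, the alpha chain of HLA-DR, had 686 and 1181 normalised reads in the shRNA1 libraries, against 130.4 and 92.7 in the scramble libraries. HLA-DPA1, the alpha chain of HLA-DP, had 389 and 594 normalised reads in the shRNA1 libraries, against 125 and 114 in the scramble libraries. All shRNA1 values were above all scramble values in these genes, and replicate 2 was the higher of the shRNA1 libraries in each. HLA-DRB1 (2.23), HLA-DQB1 (1.60) and the peptide exchange factors HLA-DMA (1.32) and HLA-DMB (2.66) rose too. CD74, the chaperone of class II, had 69.5 and 145 normalised reads in the shRNA1 libraries, against 69.1 and 29.9 in the scramble libraries, so that shRNA1 replicate 1 scarcely passed scramble replicate 1, and rose by 1.12 (adjusted p = 0.015). HLA-DRB genes are near-identical copies, and counting can split reads between them. In the B cell programme, 28 genes held 11 that rose, CIITA and BCL6 among them, and 5 that fell, the 5 coming to 3 without scramble replicate 2 and with libraries scaled to their totals.

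Class II promoters are known for an S-X-Y module that ends in the Y box, an inverted CCAAT. These letters were found on either strand in 10 of the 11 class II genes with an entry (90.9%), against 35.7% of all promoters, so the letters alone are common. The match nearest the start is shown in capitals for 3 genes, with the bases before it; on the gene's strand it is inverted in HLA-DRB1 and runs forward in HLA-DMB and CD74.
HLA-DRB1 (chr6:32589875-32589944, minus strand): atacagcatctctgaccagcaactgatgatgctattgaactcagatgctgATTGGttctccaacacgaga
HLA-DMB (chr6:32941031-32941100, minus strand): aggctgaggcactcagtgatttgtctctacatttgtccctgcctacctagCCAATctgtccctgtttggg
CD74 (chr5:150412944-150413013, minus strand): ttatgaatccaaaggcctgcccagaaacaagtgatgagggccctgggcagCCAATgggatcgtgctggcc

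MHC class I did not move as one. Of 21 genes, 8 fell and 3 rose, against 27.7% of all genes lower and 25.7% higher. The 3 came to 6 with libraries scaled to their totals, and more also rose without shRNA1 replicate 1. HLA-B had 6889.9 and 8396 normalised reads in the shRNA1 libraries, against 14694 and 15778 in the scramble libraries and fell, while NLRC5, the class I activator, rose by 0.71 ± 0.10 and the chaperone CALR by 0.75 ± 0.09.

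Metabolic enzymes for serine and amino acids were lower. All 20 genes of serine synthesis and one-carbon metabolism had a negative fold change and 18 fell (median -0.91). PHGDH, the first enzyme of serine synthesis, had 117 and 145 normalised reads in the shRNA1 libraries, against 1015 and 776 in the scramble libraries. SHMT2, the mitochondrial serine hydroxymethyltransferase, had 490.3 and 529 normalised reads in the shRNA1 libraries, against 2498 and 2447 in the scramble libraries, and CTH, which makes cysteine, changed by -2.36 ± 0.17. The shRNA1 libraries were the lower in each by a wide gap. Of 34 ATF4 targets, amino acid transporters and tRNA synthetases, 27 fell and 4 rose, with CHAC1, a glutathione-degrading enzyme, at -2.79 ± 0.15, the glycyl-tRNA synthetase GARS at -1.79 ± 0.11 and asparagine synthetase ASNS at -1.42 ± 0.13. ATF3, itself a stress-induced transcription factor of that list, went up (869 and 1186 normalised reads in the shRNA1 libraries, against 334 and 311 in the scramble libraries).

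Sugar and lipid genes were divided. Of 33 genes of glycolysis and hypoxia, 16 fell and 7 rose, the 7 coming to 4 without scramble replicate 1. ALDOA, PGK1 and GPI, enzymes of glycolysis, changed by -1.65 ± 0.13, -1.52 ± 0.12 and -1.46 ± 0.17. TKT, of the pentose phosphate pathway and listed here with NRF2 targets, had 1267 and 1183 normalised reads in the shRNA1 libraries, against 4158 and 3814 in the scramble libraries and fell; of the 23 genes of that list 11 fell and 4 rose. In cholesterol synthesis and uptake, SREBF1, the precursor of the SREBP-1 transcription factors, had 10891 and 8201 normalised reads in the shRNA1 libraries, against 2487 and 3122 in the scramble libraries and rose. Over the 34 genes of that list 14 fell and 8 rose, against 27.7% of all genes lower and 25.7% higher, and fewer rose without shRNA1 replicate 1. ABCA1, which exports cholesterol, rose by 1.65 ± 0.16.

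Lysosomal genes leaned upward, with 19 of 41 higher and 8 lower (5 with libraries scaled to their totals). CTSZ, a cysteine cathepsin, had 5848 and 6603 normalised reads in the shRNA1 libraries, against 1493 and 1204 in the scramble libraries, and PSAP, the precursor of the saposins, had 63889.8 and 49648 normalised reads in the shRNA1 libraries, against 20316 and 17771 in the scramble libraries. GABARAPL1, an ATG8 protein of autophagosomes, rose by 1.54 ± 0.10; MITF, a transcription factor of lysosomal genes, changed by -1.69 ± 0.20. The proteasome leaned downward, with 18 of 36 lower and 2 higher, or 11 lower and 4 higher when libraries were scaled to their totals. PSMB4, a subunit of the core, had 2070.3 and 2094 normalised reads in the shRNA1 libraries, against 7824 and 7310.0 in the scramble libraries, and its change of -1.86 ± 0.08 was the lowest of the 36.

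Genes of plasma cell identity and of the translocation were split. FGFR3, the receptor tyrosine kinase deregulated by t(4;14), had 5565 and 4916 normalised reads in the shRNA1 libraries, against 18838 and 19463 in the scramble libraries, a change of -1.87 ± 0.09 (adjusted p = 1.6e-10). WHSC1, the symbol of NSD2 in the table, had 18473 and 17549 normalised reads in the shRNA1 libraries, against 17348 and 17934 in the scramble libraries; the groups overlapped and it was not called (adjusted p = 0.79). IRF4 had 22362 and 18232 normalised reads in the shRNA1 libraries, against 17109 and 15719 in the scramble libraries and rose by 0.30 ± 0.10 (adjusted p = 0.02), a call that was lost without shRNA1 replicate 1 (adjusted p = 0.23) and without scramble replicate 2 (0.13). PRDM1, the repressor BLIMP-1, had 10906 and 9284 normalised reads in the shRNA1 libraries, against 6597 and 6591 in the scramble libraries and rose. XBP1, which drives the secretory programme, had 18980.4 and 18688 normalised reads in the shRNA1 libraries, against 28597 and 28289 in the scramble libraries and fell. MYC had 6772 and 5583 normalised reads in the shRNA1 libraries, against 11118 and 9247 in the scramble libraries and changed by -0.72 ± 0.11.

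Over the 37 genes of plasma cell identity, 17 fell and 13 rose, with a median of 0.03; without the filter on low values the 13 came to 8. Antigens that therapies target were among them: SLAMF7 had 1498 and 1992 normalised reads in the shRNA1 libraries, against 7575 and 8808 in the scramble libraries and TNFRSF17, which encodes BCMA, had 4712 and 4288 normalised reads in the shRNA1 libraries, against 8160.1 and 8461 in the scramble libraries. Both fell, as did GPRC5D (-0.81) and the syndecan SDC1 (-0.56). CD38 changed by 0.29 ± 0.11 (adjusted p = 0.033), which no longer passed once scramble replicate 1 (adjusted p = 0.29) or shRNA1 replicate 2 (0.21) was left out. The chemokine receptor CXCR4 rose (165 and 138 normalised reads in the shRNA1 libraries, against 37.9 and 28 in the scramble libraries) and CCR10, another, changed by -1.53 ± 0.10. POU2AF1, a B cell coactivator, and the integrin chain ITGA4 rose by 0.87 and 0.59. Of the secretory machinery, 38 genes of the unfolded protein response and ER folding held 14 that rose and 13 that fell, DNAJB9, an ER chaperone partner (1.15 ± 0.10), and P4HB, a protein disulfide isomerase (-1.66 ± 0.09), standing at opposite ends. Among all genes 25.7% rose and 27.7% fell. Immunoglobulin genes took 1.111% and 1.154% of the reads with shRNA1 and 0.9707% and 0.9859% with scramble.

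Cell adhesion and leukocyte surface genes fell more often than they rose. Of 42 genes, 22 fell and 6 rose, the 6 coming to 10 with libraries scaled to their totals. ITGB2, the beta chain of leukocyte integrins, had 9.92 and 28.5 normalised reads in the shRNA1 libraries, against 176 and 219 in the scramble libraries, and ITGAL, its alpha partner in LFA-1, had 2489 and 4138 normalised reads in the shRNA1 libraries, against 12686 and 16602 in the scramble libraries. The groups did not overlap in either gene, and ITGB2 was few in reads with shRNA1: it changed by -4.18 without shRNA1 replicate 2 and by -2.74 without replicate 1. ITGA6, an integrin alpha chain, rose by 1.65 ± 0.13.

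The BCL2 family leaned toward higher levels. Of 19 genes, 10 rose and 1 fell (median 0.60). BCL2L11, the BH3-only protein BIM, had 6993 and 5209 normalised reads in the shRNA1 libraries, against 1638 and 1432 in the scramble libraries, and PMAIP1, which encodes NOXA, had 128 and 143 normalised reads in the shRNA1 libraries, against 37.9 and 52.2 in the scramble libraries. BMF and HRK, also BH3-only, changed by 1.01 and 1.47 ± 0.17. Of the pro-survival members, BCL2 (0.60), BCL2L1 (0.62) and BCL2L2 (1.01) rose and MCL1 had 82172 and 69359.8 normalised reads in the shRNA1 libraries, against 71383 and 74856 in the scramble libraries, overlapping and not called. BAD was the 1 member that fell (-1.23 ± 0.15).

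Immediate early genes, which respond within minutes to signals or handling, rose in 17 of 26 and fell in 4. JUN had 4806 and 4551 normalised reads in the shRNA1 libraries, against 1668 and 881 in the scramble libraries, and FOS had 2754 and 1371 normalised reads in the shRNA1 libraries, against 782 and 223 in the scramble libraries. The replicates of a group were unequal in FOS: its change of 2.21 ± 0.46 was 3.12 without scramble replicate 1 and 1.31 without scramble replicate 2. KLF4, a zinc finger transcription factor, had 165 and 86.5 normalised reads in the shRNA1 libraries, against 20.4 and 14.5 in the scramble libraries. EGR1 went the other way, with 258 and 139 normalised reads in the shRNA1 libraries, against 391 and 732 in the scramble libraries, as did SRF (-0.92 ± 0.10). Signalling genes of IL-6, JAK-STAT3 and PIM rose in 12 of 20 and fell in 2 (1 without scramble replicate 2 or shRNA1 replicate 1), with the cytokine receptor IL21R at 2.91 ± 0.20, SOCS3 at 1.93 ± 0.17 and the kinase PIM1 at 1.54 ± 0.17. Among 28 subunits and targets of NF-kB, 8 rose and 7 fell, near the shares of all genes (25.7% higher and 27.7% lower). The 7 came to 3 with libraries scaled to their totals, and fewer also fell without scramble replicate 2 or shRNA1 replicate 1. MAP3K14, the kinase NIK, had 926 and 830.4 normalised reads in the shRNA1 libraries, against 263 and 321 in the scramble libraries.

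Replication-dependent histone genes, most of whose mRNAs are made without a poly(A) tail, were measured in poly(A)-selected RNA. Of 42 tested, a family chosen after its values were seen, 25 rose and 3 fell. HIST2H2BF had 1074 and 575 normalised reads in the shRNA1 libraries, against 194 and 166 in the scramble libraries, HIST2H2BE had 3771 and 2345 normalised reads in the shRNA1 libraries, against 2151 and 1631 in the scramble libraries and HIST1H4H had 1722 and 1747 normalised reads in the shRNA1 libraries, against 680.2 and 916 in the scramble libraries. HIST3H2A (-1.60), HIST1H1C (-0.88) and HIST1H2BD (-0.35) were the members that fell. Many of these genes are near-identical in sequence, and counting can split reads between them.

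Genes with the largest rises were mostly low in the scramble libraries. KIAA1644 (chr22:44243667-44312851, minus strand) had 379 and 322 reads with shRNA1, against 0 and 1 with scramble, a ratio, scaled for library size, of 630 with an exact 95% counting interval of 113 to 2.49e+04. IGF2, an insulin-like growth factor, had 156 and 192 reads with shRNA1, against 1 and 2 with scramble, a ratio of 104 (35.4 to 508); these intervals cover counting error only, and IGF2 shares its locus with INS-IGF2. AHNAK (chr11:62433542-62556235, minus strand), a giant scaffold protein, had 2752 and 2495 normalised reads in the shRNA1 libraries, against 79.8 and 92.7 in the scramble libraries, a change of 4.91 ± 0.17 (adjusted p = 6.3e-12). The ranking took only genes whose groups did not overlap, so the gap between groups in these 3 genes was set by the rule and adds no support. Of the 4 libraries compared, KIAA1644, IGF2 and SAMD11 reached 10 normalised reads only in those with shRNA1. SAMD11 had 7.78 and 9.66 normalised reads in the scramble libraries. AHNAK was more abundant than KIAA1644 and IGF2 in all 4 libraries. DDR1, a collagen receptor tyrosine kinase, had 469.6 and 482 normalised reads in the shRNA1 libraries, against 13.6 and 14.5 in the scramble libraries. PHLDB2 (4.95), SAMD11 (5.86), RUNDC3A (4.61), CECR2 of chromatin remodelling (4.58), the neuronal kinesin KIF1A (4.48), the matrix peroxidase PXDN (4.31) and the caveolin CAV2 (4.31) completed the 12 highest by the ranking rule.

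COL1A1, a chain of type I collagen, was among them with 528 and 431 normalised reads in the shRNA1 libraries, against 17.5 and 14.5 in the scramble libraries. Of 19 collagen chain genes tested, another family chosen after its values were seen, 13 rose and none fell, with a median of 0.98, although 1 fell without either scramble replicate or shRNA1 replicate 2; COL5A1 had 479.6 and 473 normalised reads in the shRNA1 libraries, against 53.5 and 47.3 in the scramble libraries and COL27A1 had 2239.8 and 2046 normalised reads in the shRNA1 libraries, against 489 and 549 in the scramble libraries. The summed fibroblast markers, 533 and 438 normalised reads with shRNA1, against 28 and 30 with scramble, were with shRNA1 nearly all COL1A1, itself 1 of the 8. The other 7 had under 10 in all 4 libraries, COL3A1 and LUM with no read. The source of the COL1A1 reads was not tested. Epithelial markers summed to 418 and 428 with shRNA1, against 237 and 287 with scramble, with no read of KRT19. Of these 7 markers 3 could be tested, and all 3 rose, against 25.7% of all genes. At the low end, MB, myoglobin, had 9.09 and 5.52 normalised reads in the shRNA1 libraries, against 242 and 499 in the scramble libraries and changed by -5.43 ± 0.28, the lowest of all genes ranked.

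**Figure D4:**
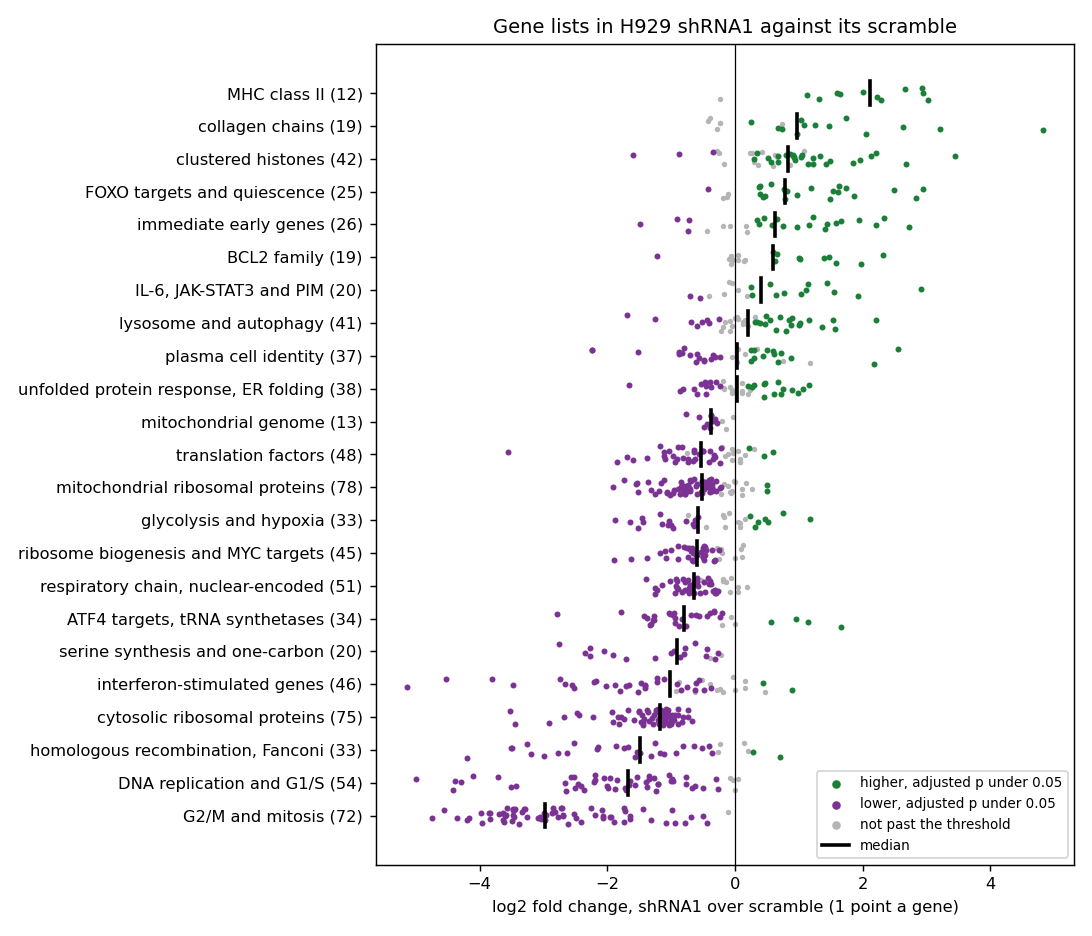
Log2 fold change, shRNA1 over scramble, of every tested gene (points) in 23 lists (rows, with the number tested), coloured by whether the gene passed a limma adjusted p under 0.05; a black bar marks each median. Medians run from 2.11 for MHC class II at the top to -2.97 for G2/M and mitosis at the bottom, and the cytosolic ribosomal protein genes are all to the left of 0.

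Set beside the second hairpin in the same line, the effect of shRNA1 differed in 41.8% of genes: it was higher in 3984 and lower in 3634, by a limma test of the difference between the effects (adjusted p under 0.05). These comparisons share no library. The difference takes in both scramble groups, which themselves differed in 29.9% of genes. Whether a difference of effects lay in the hairpins or in the controls was not tested. With shRNA2, 3274 genes rose (18%) and 4551 fell (25%), 43% in all. Of the genes that rose with shRNA1, 1270 also rose with shRNA2 (27.1% of the shRNA1 genes and 38.8% of the shRNA2 genes), and of those that fell 2104 also fell (41.7% and 46.2%). In 950 genes shRNA1 gave a rise and shRNA2 a fall, and in 503 the reverse. ZBP1 changed by -1.31 with shRNA1 and by -1.62 with shRNA2, and that difference did not pass (adjusted p = 0.07).

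In the ribosomal protein genes the effects, each against its own scramble, stood apart: 73 of 75 were lower with shRNA1 by the test of the difference, against a background of 20% of all genes lower, and the median was -1.17 with shRNA1 and -0.05 with shRNA2. RPS3A changed by -3.44 with shRNA1 and 0.01 with shRNA2, and EIF3L by -3.56 and -0.10. Nuclear-encoded respiratory chain genes were lower in the difference in 40 of 51 (medians -0.65 and 0.10). Interferon-stimulated genes were lower in 28 of 46 (-1.02 and -0.30) and mitochondrial ribosomal protein genes in 45 of 78 (-0.52 and -0.11). With shRNA2, 20 of the 46 interferon-stimulated genes fell and 12 rose, against 25% of all genes lower and 18% higher. Immediate early genes were higher in the difference in 22 of 26, against 21.9% of all genes, with JUN at 1.95 and -1.40; 19 of them fell with shRNA2. G2/M genes fell with both hairpins, by a median of -2.97 with shRNA1 and -2.05 with shRNA2, and 42 of 72 were lower in the difference. Ribosome biogenesis had medians of -0.60 and -0.63, with 6 higher and 8 lower of 45. MHC class II went up with both hairpins: with shRNA2, 5 of 12 genes rose and none fell. Its medians were 2.11 and 0.59, and 6 of 12 genes were higher in the difference. FGFR3 went opposite ways, -1.87 with shRNA1 and 0.93 with shRNA2.

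The same hairpin was also tested in MM1.S. ZBP1 changed by -1.31 in H929 and by -2.56 in MM1.S, a difference of 1.25 ± 0.17 (limma adjusted p = 0.00026). The effect of shRNA1 in H929 was higher than in MM1.S in 2248 and lower in 2118 of 20370 genes (21.4% in all). In MM1.S, 18.3% of these genes rose with shRNA1 and 21% fell, 39.3% in all. Of the genes that rose in H929, 1903 also rose in MM1.S (40.6% of the H929 genes and 55.6% of the MM1.S genes), and of those that fell 2564 also fell (50.8% and 61.9%). In 323 genes H929 gave a rise and MM1.S a fall, and in 331 the reverse. Across the 18213 genes of the H929 test, log2 fold changes with H929 shRNA1 had a Pearson correlation of 0.458 with those of MM1.S shRNA1 and of 0.281 with those of H929 shRNA2, given as a description over genes.

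Ribosomal protein genes were lower in H929 than in MM1.S in 73 of 75 (background 10.4% of genes lower), with medians of -1.17 and -0.24. The members furthest down in H929 were lower in MM1.S also, with RPS16 at -3.52 in H929 and -1.79 in MM1.S, RPS3A at -3.44 and -1.58, and EIF3L at -3.56 and -1.99. Interferon-stimulated genes took opposite directions: 31 of 46 fell in H929, while 25 of 47 rose and 2 fell in MM1.S, and 33 of 47 were lower in the difference. IFI44L changed by -5.13 in H929 and 2.83 in MM1.S. MHC class II was higher in the difference in 8 of 13 genes (background 11% higher), with medians of 2.11 in H929 and 0.47 in MM1.S. The respiratory chain had medians of -0.65 in H929 and -0.62 in MM1.S, with 5 of 51 genes lower and 2 higher in the difference. IRF4 changed by 0.30 in H929 and -1.59 in MM1.S, a difference of 1.89 ± 0.16 (adjusted p = 8.7e-06).

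**Figure D5:**
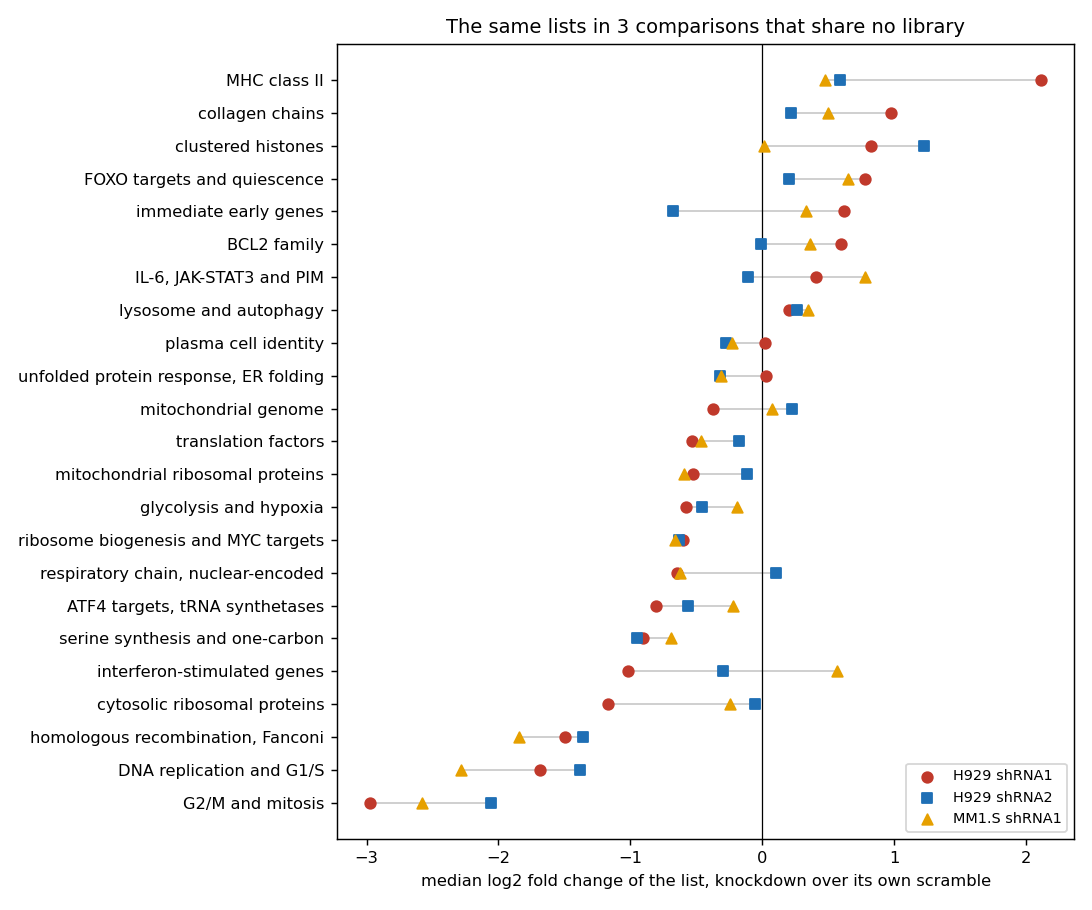
Median log2 fold change of 23 gene lists (rows) in 3 comparisons of a hairpin with its own scramble: H929 shRNA1 (red circles), H929 shRNA2 (blue squares) and MM1.S shRNA1 (yellow triangles). H929 shRNA1 lies furthest from 0 at -1.17 for the cytosolic ribosomal proteins and at 2.11 for MHC class II. The class II median is above 0 in the others also, at 0.59 with H929 shRNA2 and 0.47 in MM1.S. All 3 lie together for ribosome biogenesis.

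The authors' deposited table for this comparison lists ZBP1 at a log2 fold change of -1.24 with an adjusted p of 1.1e-29. It holds 7652 genes with an adjusted p under 0.05, of which 7606 were tested here, and 7602 of those were called here in the same direction and none in the opposite one. Its negative values mean lower with shRNA1, as the sign for ZBP1 shows.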

How the data were processed

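The H929 values were deposited as a normalized signal: the authors divided the counts of each library by 1 size factor, as the values show, since multiplied back 100% are whole within 0.01. The MM1.S table holds counts per gene, per the file headers. STAR (2.5.3a), DESeq2 (1.24.0) and the build GRCh38 are named, per the submitters' processing notes; the counting tool, annotation and strand are not given in the sources used here. Of 58069 rows, 18 repeated identifiers were dropped. Columns of shRNA2 and of scramble replicate 2 for shRNA1 were assigned by elimination. The authors also deposited log2 fold changes and adjusted p-values for this comparison, per the file headers.

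H929 was tested with limma 3.58.1 (trend, R 4.3.3) on log2(value + 1), 8 libraries in 1 fit, for genes of at least 10 in at least 2 libraries, with Benjamini-Hochberg adjustment at 0.05. The difference between lines used the 14 libraries together, after MM1.S counts had been put on median-of-ratios scale. The test was checked on simulated counts in which most genes were unchanged, with as many rises as falls. In the data 53.4% of genes were called, so this check does not cover the scaling. Between replicates, chi-square per degree of freedom was 2.57 to 11.7, where pure counting gives about 1, so counting error is the smaller part of the spread.

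The 42 gene lists (1228 of 1229 entries matched) and the members were chosen with earlier results of these data known; 4 families were added after values were seen. No list was tested. Named genes were chosen by rule: a set of ZBP1, myeloma and check genes, the 12 highest and 12 lowest with at least 5 CPM and no overlap of groups, up to 3 each way per list, and 5 each way per difference of effects, with the same minimum over the libraries of both comparisons; further genes named as list members were chosen after their values were seen. Of 197 named by the rule and tested, 111 overlap another annotated gene, 90 on the opposite strand. Positions came from GENCODE release 29 (57447 identifiers matched), start sites and promoters from RefSeq on GRCh38.p14 (300 bases). Alternatives were TMM or total-count scaling (chosen after seeing the data), other pseudocounts and filters, edgeR 4.0.16 and DESeq2 1.42.0 on recovered reads, fewer libraries, and the replicate block. Some withheld genes are not reported here.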

Additional observations from a re-analysis of the deposited data

Results flagged for a closer look

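Results are given here because a test of the difference showed that the shRNA1 effect in H929 was unlike the effect of shRNA2 in H929, or unlike that of shRNA1 in MM1.S (limma, adjusted p under 0.05). Against shRNA2, 3984 genes were higher and 3634 lower. Among genes with a mean of at least 5 CPM over the 8 H929 libraries, the differences on the log2 scale reached 7.37 for KIAA1644, 6.12 for CAV2, 6.0 for COL1A1, 5.92 for PHLDB2 and 5.66 for AHNAK. The lowest were -5.83 for IFI44L, -4.40 for IFI44, -4.23 for DDX60, -3.74 for CPM and -3.52 for RPS16. CPM, a carboxypeptidase, changed by -1.19 with shRNA1 and 2.55 with shRNA2.

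Against MM1.S, 2248 genes were higher and 2118 lower. Among genes with a mean of at least 5 CPM over the 8 libraries compared, KIAA1644 differed by 6.90, PXDN by 6.03, KIF1A by 5.70, AHNAK by 5.57 and CAV2 by 5.28. IFI44L differed by -7.97, MMP9 by -6.58, IFI44 by -5.57, XAF1 by -5.40 and MILR1 by -5.22. MMP9 had 5 and 2 reads with shRNA1, against 6 and 7 with scramble, so it was not tested in H929 alone and its difference rests on the MM1.S libraries. AHNAK, CAV2, KIAA1644, IFI44L and IFI44 stood out against both. Both differences contain the same H929 libraries of shRNA1 and its scramble, so standing out in both adds no separate support. IGF2, below that level in both, differed by 5.79 ± 0.89 from shRNA2 and by 5.98 ± 0.77 from MM1.S. Values of genes with few reads in the H929 scramble libraries, among them KIAA1644, COL1A1, CAV2, PHLDB2, KIF1A and IGF2, depend on the pseudocount.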

How the results depend on the processing

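Counts of genes for shRNA1 against its scramble stayed within 1.5 times under every alternative run: 3814 to 6014 higher and 3934 to 5295 lower, with edgeR's quasi-likelihood test on the recovered reads giving 4934 and 4941 and DESeq2 4067 and 4355. Leaving out each library in turn gave 3814 to 4254 higher and 4383 to 4773 lower; a group left with 1 library is assumed to vary like the others. For the difference from shRNA2, leaving out a library gave 3553 to 3827 higher and 3228 to 3611 lower. The difference from MM1.S gave 1606 to 1875 higher and 1450 to 1826 lower without a library, and with the replicate block 3515 higher and 3211 lower; the cause was not tested. In H929 the replicate numbers were not taken to pair the libraries. Deviations of shRNA1 and its scramble correlated at 0.207 over 12509 genes, the highest of the pairs of groups. Those of shRNA2 and its scramble correlated at 0.09, and the remaining pairs went down to -0.138. With 2 libraries a group, these values cannot settle whether the numbers pair the libraries. The block for shRNA1 alone gave 4946 and 5295 calls. No result reversed. Of 2917 values of named genes under alternatives, 50 lost the call and 7 gained it. The 15 results that lost it at least once were IRF4, DTX3L, TAP2, ATM, TNFAIP3, FOSB, SPRED2, ZBTB20, MYBL1, HSPA1B, BTG1, NQO1, MT2A, KRT18 and CD38. Of 1288 counts recomputed for the lists and families, 64 moved by over 1.5 times, 18 of them with total-count scaling and 29 without a library. Collagen chains called lower came to 2 with the replicate block.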
